A study of Mus musculus with 9 samples.

Results

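The 7 genes described here encode proteins that carry fatty acids into endothelial cells, bind or activate them there, or control these steps: *Cd36*, *Fabp4*, *Fabp5*, *Pparg*, *Lpl*, *Acsl1* and *Lipg*. They were taken by name as a pathway, and are 7 of the 17232 genes in the table. All 7 passed the filter on low values (at least 0.1 RPKM in at least 3 libraries), which kept 16364 genes. RNA-seq was done on endothelial cells (ECs) sorted from the bone marrow of *Nestin*-GFP mice, which carry a transgene that places green fluorescent protein under *Nestin* promoter elements. *Nestin*-GFPbright and *Nestin*-GFPdim arterial ECs (AECs) were sorted as CD45-CD31+PDPN-Sca-1bright cells and split by their GFP signal, and sinusoidal ECs (SECs) as CD45-CD31+PDPN+Sca-1low cells. The study used young adult mice of both sexes, and all animals of the 3 groups carried the transgene and were untreated as far as the labels say. Each group had 3 libraries, numbered 1, 3 and 4. Neither pooling of animals nor the animals behind each library is stated, so p values measure the spread between these libraries, which may be technical in part.

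Fatty acids reach tissues as triglyceride in lipoproteins and as free acid on albumin, and the endothelium stands between blood and tissue for both. Lipoprotein lipase (LPL), anchored on capillaries by GPIHBP1, and endothelial lipase, the product of *Lipg*, split lipoprotein lipids at the vessel wall. CD36 on the cell surface takes up the released acids, FABP4 and FABP5 hold them in the cytosol, ACSL1 joins them to coenzyme A, and the nuclear receptor PPARγ, encoded by *Pparg*, drives transcription of many of these genes.

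The depth was between 21446498 and 54389294 reads in listed genes in *Nestin*-GFPbright AECs, 13896190 and 40683904 in *Nestin*-GFPdim AECs, and 36720449 and 73475550 in SECs. Levels are given in RPKM (reads scaled by transcript length and library size), as the authors computed them. Means are given with the SD over the 6 AEC and the 3 SEC libraries. The members together took 0.128% to 0.829% of the reads of a library. Of the marker genes, 7 of 10 arterial markers were higher and 8 of 10 sinusoidal markers lower in AECs than in SECs, while 0 of 10 pan-endothelial markers passed the test (1 at an unadjusted p under 0.05, and 0 with limma-voom). The paper reported several of these arterial and sinusoidal markers, such as *Bmx* and *Stab2*, from these same libraries. Their direction in these libraries is thus no independent check of the sort. By qPCR on sorted cells, the paper also found *Bmx* and *Efnb2* higher, and *Sele* and *Vcam1* lower, in AECs than in SECs. Of 8 capillary markers, 2 were higher (*Meox2* and *Aqp7*), and all 8 summed to 232 to 1741 RPKM in AECs and 313 to 474 RPKM in SECs. Among 11 markers of pericytes and smooth muscle, *Acta2*, *Myl9* and *Rgs5* were higher and *Kcnj8* lower. The median log2 fold change of the 11 was 1.09, while their sums were 58.4 to 401 RPKM in AECs and 318 to 666 RPKM in SECs. The sum is dominated by the most abundant markers and did not follow the median. Whatever their direction, 10 had an unadjusted p under 0.05, where 2407 of 16364 tested genes did. Of 10 marrow stromal markers tested, 2 were higher (*Kitl* and *Cxcl12*, which arterial endothelium also expresses) and 1 lower (*Grem1*), with sums of 74.9 to 382 RPKM in AECs and 19.7 to 45.1 RPKM in SECs. *Lepr*, which defines these stromal cells, had 1.64 to 12.1 RPKM in AECs and 8.03 to 15.6 RPKM in SECs. The part of these cell types in the results was not tested. *Nestin*-GFPbright AEC replicate 1 stood apart: its 10 pan-endothelial markers summed to 504 RPKM, against 1082 to 3019 RPKM in the other libraries, and 10 neutrophil markers took 17.2% of its reads. The neutrophil share was also high in the other libraries numbered 1, at 13.6% in *Nestin*-GFPdim AECs and 8.72% in SECs, against at most 4.19% in libraries numbered 3 and 4. Results are therefore also given for libraries numbered 3 and 4 alone.

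Promoters are shown for *Cd36* and *Pparg* because *Cd36* is a textbook target of PPARγ, and the level of both genes is compared below. RefSeq promoter windows on GRCm38.p6, covering 250 bases before to 50 bases after a transcription start, were matched for 3 of the 7 members (*Cd36*, *Pparg* and *Acsl1*, 6 windows). PPARγ binds with its partner RXR to a pair of AGGTCA half-sites 1 base apart (AGGTCANAGGTCA). Both strands were searched, and capitals mark a half-site, read as TGACCT when it lies on the other strand. The *Cd36* window is chr5:17835847-17836146 on the minus strand, and the first *Pparg* window is chr6:115360894-115361193 on the plus strand. The *Cd36* window lies inside the annotated gene (chr5:17781690-17888959), so sequence at the outer end of the gene was not searched.
Cd36: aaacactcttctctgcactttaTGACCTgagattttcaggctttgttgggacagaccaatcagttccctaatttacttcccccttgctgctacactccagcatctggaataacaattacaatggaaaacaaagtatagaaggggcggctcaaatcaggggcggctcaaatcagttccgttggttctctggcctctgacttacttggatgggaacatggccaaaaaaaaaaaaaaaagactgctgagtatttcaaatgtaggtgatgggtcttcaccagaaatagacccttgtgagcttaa
Pparg: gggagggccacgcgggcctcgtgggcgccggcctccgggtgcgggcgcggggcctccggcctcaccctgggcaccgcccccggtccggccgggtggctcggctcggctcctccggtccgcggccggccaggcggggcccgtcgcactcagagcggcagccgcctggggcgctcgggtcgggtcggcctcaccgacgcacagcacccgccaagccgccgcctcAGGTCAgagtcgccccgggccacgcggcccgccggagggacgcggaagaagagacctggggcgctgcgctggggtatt
Each of these windows held 1 half-site and 0 complete pairs. Of 32851 mouse promoter windows of 300 bases, 16.3% held a half-site and 0.0396% a complete pair, and of the windows not printed, the second of *Pparg* held 1 half-site and the third of *Pparg* and both of *Acsl1* held 0, with 0 complete pairs in any. A match of letters says nothing of binding.

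AECs had more *Fabp5* and less *Lipg* than SECs, and these 2 of 7 passed the test (limma on log2(RPKM + 1), Benjamini-Hochberg adjusted p under 0.05), where 4.93% of all tested genes passed, 1.94% higher and 2.99% lower. *Pparg* was below every SEC library in all AEC libraries with an adjusted p of 0.0604. *Cd36*, *Fabp4*, *Lpl* and *Acsl1* did not pass. Taken by fraction, 1 of 7 passed in *Nestin*-GFPbright AECs (*Lipg*, lower), where 4.58% of tested genes did (1.74% higher, 2.85% lower), and 2 of 7 in *Nestin*-GFPdim AECs (*Fabp5* higher, *Lipg* lower), where 1.95% did (0.764% higher, 1.19% lower). In libraries numbered 3 and 4 alone, 3 of 7 passed in AECs, *Pparg* being added, where 647 of 15270 tested genes did. The AEC libraries did not overlap the SEC libraries for 4 of 7 members (*Fabp5* higher, and *Pparg*, *Lpl* and *Lipg* lower), where 10.5% of all tested genes did not overlap, 4.69% higher and 5.77% lower. In bulk samples, fewer cells of a type and less RNA per cell cannot be told apart.

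**Figure D1:**
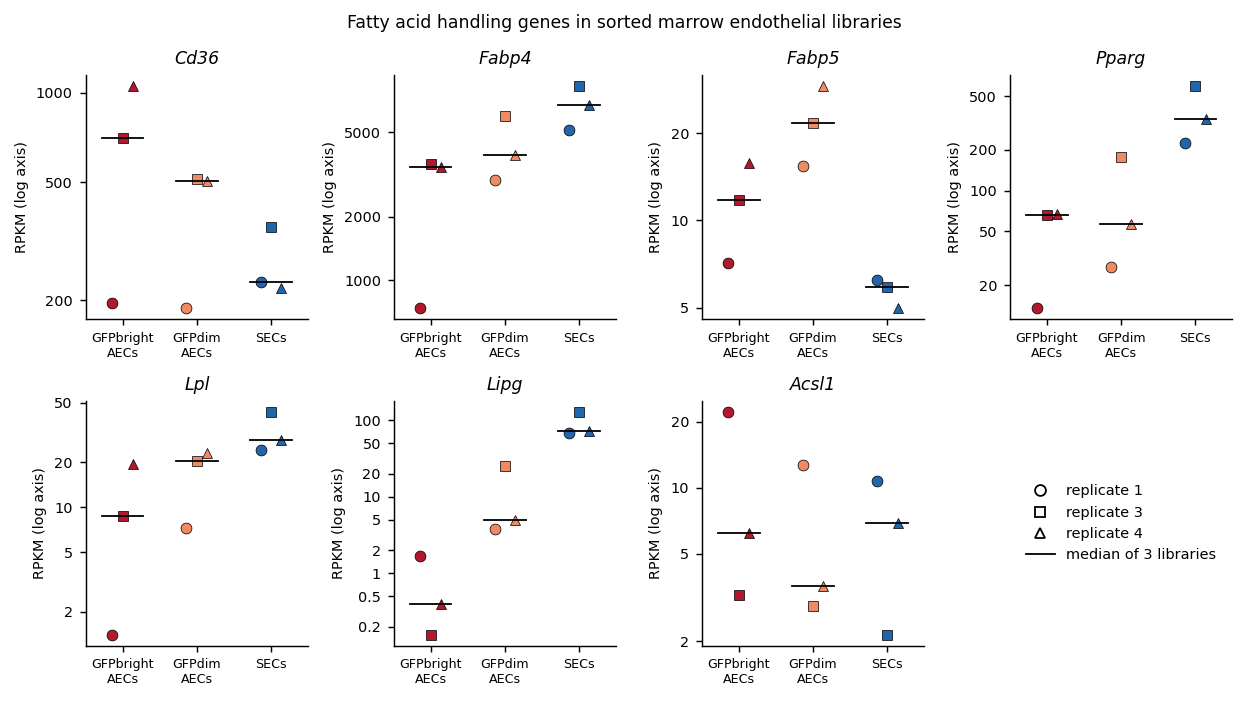
RPKM of each gene on a log axis in *Nestin*-GFPbright and *Nestin*-GFPdim AECs and in SECs, 1 point per library with the replicate number as its shape and a line at the median of 3 libraries. *Fabp5* is higher, and *Pparg*, *Lpl* and *Lipg* lower, in all 6 AEC libraries than in all 3 SEC libraries, and *Acsl1* is highest in replicate 1 of every group.

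*Cd36*, the surface receptor for long-chain fatty acids, lies at chr5:17781690-17888959 of GRCm38 on the minus strand. It had 195, 706 and 1059 RPKM in *Nestin*-GFPbright AEC replicates 1, 3 and 4, 188, 514 and 504 RPKM in *Nestin*-GFPdim AECs, and 229.5, 352 and 219 RPKM in SECs. The groups overlapped only through the AEC libraries numbered 1, which were below every SEC library. The mean was 528 ± 329 RPKM in AECs, against 267 ± 74.2 RPKM in SECs. Their log2 fold change was 0.75 ± 0.57 (SE), with an adjusted p of 0.707 from limma. An exact two-sided permutation test, which took all libraries as independent whatever their number, gave p = 0.238. Between libraries numbered 3 and 4 alone, where the groups did not overlap, the log2 fold change was 1.25 (adjusted p = 0.120 from limma, and 0.0667 by exact permutation, the smallest 15 arrangements allow). By its mean level *Cd36* ranked 75 among 16364 genes in *Nestin*-GFPbright AECs, 122 in *Nestin*-GFPdim AECs and 192 in SECs.

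The cytosolic carriers *Fabp4* and *Fabp5* lie on the same chromosome, at chr3:10204347-10208576 on the minus strand and chr3:10012548-10016607 on the plus strand. *Fabp4* is known from adipocytes, macrophages and capillary endothelium, and *Fabp5* from skin, macrophages and endothelium. *Fabp4* had 737, 3532 and 3419.9 RPKM in *Nestin*-GFPbright AECs, 2979, 5974 and 3919 RPKM in *Nestin*-GFPdim AECs, and 5118, 8327 and 6727 RPKM in SECs. Only *Nestin*-GFPdim AEC replicate 3 reached into the range of SECs, and *Nestin*-GFPbright AEC replicate 1 was far below all other libraries. The mean ranked 16 among 16364 genes in *Nestin*-GFPbright AECs, 8 in *Nestin*-GFPdim AECs and 5 in SECs, so that *Fabp4* was among the most abundant transcripts of all 3 populations. The log2 fold change of AECs against SECs was -1.17 ± 0.67 (SE), with an adjusted p of 0.526 from limma and p = 0.0952 by exact permutation. Over libraries numbered 3 and 4 alone it was -0.87 (adjusted p = 0.538 from limma, and 0.0667 by exact permutation).

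*Fabp5* differed in the other direction, at a lower level. It had 7.12, 11.8 and 15.8 RPKM in *Nestin*-GFPbright AECs, 15.4, 21.7 and 29.2 RPKM in *Nestin*-GFPdim AECs, and 6.21, 5.90 and 4.98 RPKM in SECs. Every AEC library was above every SEC library, and the SEC libraries lay close together. The mean was 16.8 ± 7.74 RPKM in AECs, against 5.69 ± 0.640 RPKM in SECs, a log2 fold change of 1.30 ± 0.28 (SE, adjusted p = 0.0358 from limma). The exact permutation test gave p = 0.0357, where 84 arrangements allow 0.0119 at the least. With libraries numbered 3 and 4 alone the log2 fold change was 1.61 (adjusted p = 0.0279 from limma). Taken by fraction, the log2 fold change against SECs was 0.85 in *Nestin*-GFPbright AECs (adjusted p = 0.243) and 1.75 in *Nestin*-GFPdim AECs (adjusted p = 0.0356), both from limma, and these comparisons share the SEC libraries. The call in *Nestin*-GFPdim AECs was lost in 8 of 20 alternatives (adjusted p 0.0114 to 0.170), such as without *Nestin*-GFPbright AEC replicate 3 (0.0638), *Nestin*-GFPdim AEC replicate 3 or 4 (0.0861 and 0.134) or any SEC library (0.105 to 0.170). The call for AECs was lost in 8 of 20 alternatives (adjusted p 0.00229 to 0.179), among them leaving out *Nestin*-GFPbright AEC replicate 3 or 4 (0.0798 and 0.0693), *Nestin*-GFPdim AEC replicate 3 or 4 (0.0651 and 0.0662) or any SEC library (0.108 to 0.179). The annotation also holds a copy named *Fabp5l2*, and reads that match both could have been lost from *Fabp5*.

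Within each library, the ratio of *Fabp4* to *Fabp5* was 103, 300.3 and 216 in *Nestin*-GFPbright AECs, 194, 276 and 134 in *Nestin*-GFPdim AECs, and 825, 1412 and 1352 in SECs. The 2 AEC fractions covered much the same range, and all SEC libraries were above it. The ratio of *Cd36* to *Fabp4* was 0.265, 0.200 and 0.310 in *Nestin*-GFPbright AECs, 0.0630, 0.0861 and 0.129 in *Nestin*-GFPdim AECs, and 0.0448, 0.0423 and 0.0326 in SECs, so that the 3 groups did not overlap. These ratios, and those below, were chosen after the values were seen and carry no test. Their size rests on the gene lengths behind RPKM, which were 637 bases for *Fabp4*, 3927 for *Cd36*, 3567 for *Fabp5*, 6810 for *Lpl* and 3787 for *Lipg*. However, the only coding transcript has 896 bases for *Fabp4*, 987 for *Fabp5* and 4115 for *Lpl*. With these transcript lengths, the ratios of *Fabp4* to *Fabp5* and of *Lipg* to *Lpl* would be lower in every library. The order of libraries within a ratio does not depend on these lengths.

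**Figure D2:**
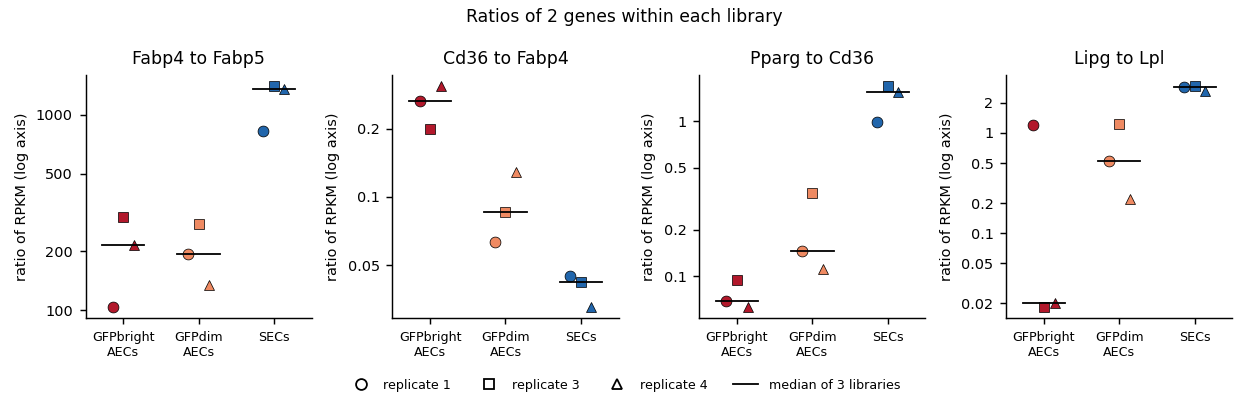
Ratio of RPKM of 2 genes within each library on a log axis, by group, 1 point per library with the replicate number as its shape and a line at the median of 3 libraries. The ratio of *Fabp4* to *Fabp5* is 825 to 1412 in SECs and at most 300.3 in AECs, and the ratio of *Cd36* to *Fabp4* separates all 3 groups.

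*Pparg*, at chr6:115361221-115490401 on the plus strand, encodes the nuclear receptor that directs fat storage in adipocytes and fatty acid uptake in endothelium and macrophages. It had 13.5, 66.5 and 66.7 RPKM in *Nestin*-GFPbright AECs, 27.1, 176 and 56.5 RPKM in *Nestin*-GFPdim AECs, and 226, 598 and 336 RPKM in SECs. All AEC libraries were below all SEC libraries, with *Nestin*-GFPdim AEC replicate 3 the nearest to them. The mean was 67.7 ± 57.3 RPKM in AECs, against 386 ± 191 RPKM in SECs. The log2 fold change was -2.79 ± 0.69 (SE), which missed the threshold at an adjusted p of 0.0604 from limma, and the exact permutation test gave p = 0.0119, the smallest it allows. That test took both AEC fractions of a number as independent, so its p can be too small. Over the 20 alternatives the log2 fold change stayed between -3.15 and -2.27 and the adjusted p lay between 0.00217 and 0.286, under 0.05 in 5 of them, such as without *Nestin*-GFPdim AEC replicate 3 (0.0305) and in libraries numbered 3 and 4 alone (0.0498, with a log2 fold change of -2.44). By fraction it was -3.14 in *Nestin*-GFPbright AECs (adjusted p = 0.0677, under 0.05 in 3 of 20 alternatives) and -2.44 in *Nestin*-GFPdim AECs (adjusted p = 0.235), both from limma. In *Nestin*-GFPdim AECs the adjusted p from limma lay between 0.0123 and 0.669 over the 20 alternatives. Only 1 of them was under 0.05, with replicate number in the fit as a block, and pairing was not shown for number 4.

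The ratio of *Pparg* to *Cd36* was 0.0691, 0.0941 and 0.0630 in *Nestin*-GFPbright AECs, 0.145, 0.342 and 0.112 in *Nestin*-GFPdim AECs, and 0.983, 1.70 and 1.53 in SECs. Again the 3 groups did not overlap, and *Nestin*-GFPdim AECs lay between. In libraries numbered 3 and 4, all AECs were below SECs for *Pparg* and above them for *Cd36*. An antisense gene model, *Gm44079*, overlaps *Pparg*. The kit does not mark strand, so reads of the pair cannot be told apart. *Pparg*, *Fabp4*, *Cd36* and *Lpl* are also genes of adipocytes and macrophages. Adipocyte markers were low: the 5 of 10 in the table summed to 10.3 to 20.8 RPKM in AECs and 9.14 to 17.9 RPKM in SECs, and *Adipoq*, their defining gene, had 0.0563 to 7.84 RPKM in AECs and 1.54 to 8.70 RPKM in SECs. The other 5 were not in the table and were not analysed here. Of the 4 adipocyte markers tested, 0 passed (1 at an unadjusted p under 0.05, and 0 with limma-voom). Macrophage and monocyte markers, 11 of 12 in the table, summed to 561 to 16549 RPKM in AECs and 309 to 7045 RPKM in SECs. Of the 11 tested, 1 was lower in AECs (*Mrc1*) and 10 did not pass. Their sum was highest in replicate 1 of each group (16549, 9966 and 7045 RPKM), where the neutrophil markers were highest too. The part of adipocytes and macrophages in the level of these 4 genes was not tested.

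The lipases *Lpl* and *Lipg* belong to 1 protein family, LPL acting mainly on triglyceride and endothelial lipase mainly on phospholipid of high-density lipoprotein. *Lpl* lies at chr8:68880491-68907448 on the plus strand and *Lipg* at chr18:74939322-74961263 on the minus strand. *Lpl* had 1.41, 8.69 and 19.4 RPKM in *Nestin*-GFPbright AECs, 7.25, 20.5 and 23.0 RPKM in *Nestin*-GFPdim AECs, and 24.1, 43.4 and 28.3 RPKM in SECs. The AEC libraries were all lower, though *Nestin*-GFPdim AEC replicate 4 came within 2 RPKM of SEC replicate 1. The log2 fold change was -1.51 ± 0.64 (SE, adjusted p = 0.320 from limma, p = 0.0833 by exact permutation), and it was smaller in libraries numbered 3 and 4 alone (-1.01, adjusted p = 0.244).

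*Lipg* showed the widest gap of the 7 genes. It had 1.68, 0.158 and 0.393 RPKM in *Nestin*-GFPbright AECs (292, 20 and 32 reads), 3.81, 25.0 and 5.03 RPKM in *Nestin*-GFPdim AECs, and 68.4, 129 and 73.5 RPKM in SECs. The 3 groups did not overlap, and *Nestin*-GFPdim AEC replicate 3 was the highest AEC library. The mean was 6.005 ± 9.48 RPKM in AECs, against 90.2 ± 33.4 RPKM in SECs, a log2 fold change of -4.51 ± 0.55 (SE, adjusted p = 0.00327 from limma, p = 0.0119 by exact permutation). The call held in all 20 alternatives (adjusted p 0.000362 to 0.0258), with a log2 fold change of -4.62 in libraries numbered 3 and 4 alone (adjusted p = 0.0136 from limma). By fraction, the log2 fold change against SECs was -5.75 in *Nestin*-GFPbright AECs (adjusted p = 0.00280) and -3.27 in *Nestin*-GFPdim AECs (adjusted p = 0.0426), both from limma. The call in *Nestin*-GFPdim AECs was lost in 13 of 20 alternatives (adjusted p 0.00838 to 0.190), such as without any 1 SEC library (0.106 to 0.190), *Nestin*-GFPdim AEC replicate 1 (0.108) or replicate 4 (0.160), or *Nestin*-GFPbright AEC replicate 3 or 4 (0.0668 and 0.0793).

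*Lipg* was ordered like the sum of the sinusoidal markers between the 3 groups, among *Nestin*-GFPdim AECs and among SECs, but in the reverse order among *Nestin*-GFPbright AECs. The 10 sinusoidal markers summed to 78.4, 179 and 140.2 RPKM in *Nestin*-GFPbright AEC replicates 1, 3 and 4, to 182, 1112 and 445 RPKM in *Nestin*-GFPdim AECs, and to 3406, 5834 and 3825 RPKM in SECs. *Nestin*-GFPdim AEC replicate 3 was thus the AEC library with the most sinusoidal marker RNA as well as the most *Lipg*. Its *Stab2*, a scavenger receptor of sinusoidal endothelium, had 36.0 RPKM, against 0.289 to 9.74 RPKM in the other AEC libraries and 202 to 277 RPKM in SECs. The part of SEC transcripts in the *Lipg* of *Nestin*-GFPdim AECs was not tested. The ratio of *Lipg* to *Lpl* was 1.19, 0.0182 and 0.0203 in *Nestin*-GFPbright AECs, 0.525, 1.22 and 0.219 in *Nestin*-GFPdim AECs, and 2.84, 2.96 and 2.59 in SECs. SECs had more *Lipg* than *Lpl* per length in all 3 libraries and held this ratio within a narrow range, whereas it varied widely among AEC libraries.

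*Acsl1*, at chr8:46471041-46536051 on the plus strand, encodes an enzyme that activates long-chain fatty acids for storage or oxidation. It had 22.1, 3.25 and 6.20 RPKM in *Nestin*-GFPbright AECs, 12.7, 2.89 and 3.58 RPKM in *Nestin*-GFPdim AECs, and 10.8, 2.15 and 6.92 RPKM in SECs. The groups overlapped, and replicate 1 was the highest library of each. The log2 fold change of AECs against SECs was 0.17 ± 0.66 (SE, adjusted p = 0.969 from limma, p = 0.786 by exact permutation), and its sign turned in 5 of 20 alternatives, to -0.048 in libraries numbered 3 and 4 alone. The summed share of the 10 neutrophil markers was 17.2%, 2.57% and 4.19% of reads in *Nestin*-GFPbright AECs, 13.6%, 0.670% and 0.560% in *Nestin*-GFPdim AECs, and 8.72%, 0.00665% and 4.08% in SECs. Within each group *Acsl1* had the order of these shares, except that *Nestin*-GFPdim AEC replicate 4 had more *Acsl1* than replicate 3 at a lower share. *Acsl1* is also a gene of neutrophils, and their part in its level was not tested. An antisense model, *Gm45244*, overlaps it.

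**Figure D3:**
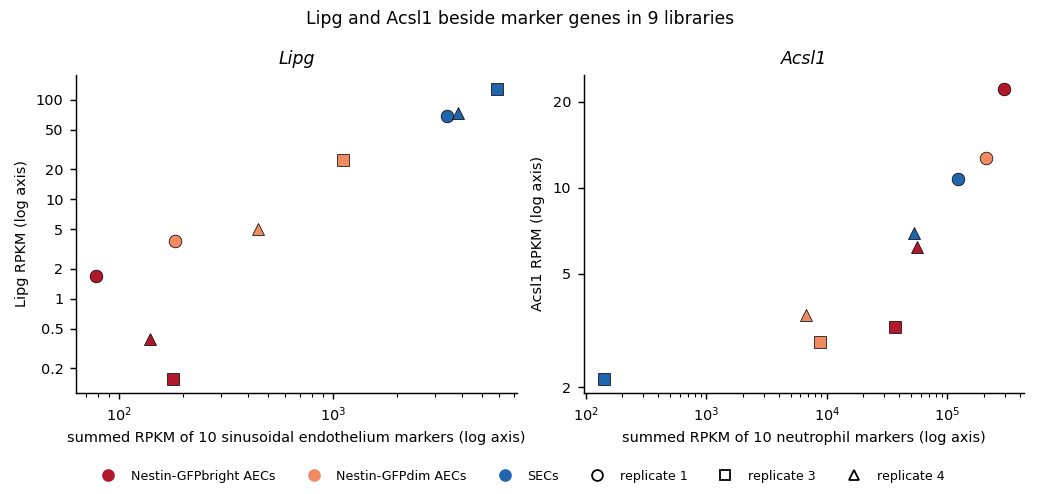
RPKM of *Lipg* against the summed RPKM of 10 sinusoidal markers (left) and of *Acsl1* against that of 10 neutrophil markers (right), both axes logarithmic, 1 point per library coloured by group with the replicate number as its shape. *Nestin*-GFPdim AEC replicate 3 is the highest AEC library on both axes of the left panel, at 25.0 RPKM of *Lipg*, and the libraries numbered 1 are the 3 highest on both axes of the right panel.

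Between *Nestin*-GFPbright and *Nestin*-GFPdim AECs, 0 of the 7 genes passed the test, as did 0 of 16364 genes (0.0%; 803 genes at an unadjusted p under 0.05, and 0 with limma-voom). *Lipg* had the largest difference among the members, with 0.744 ± 0.819 RPKM in *Nestin*-GFPbright AECs and 11.3 ± 11.9 RPKM in *Nestin*-GFPdim AECs (SD, n = 3 each). Its log2 fold change was -2.48 ± 0.64 (SE, unadjusted p = 0.00398, adjusted p = 0.609 from limma). *Fabp5* averaged 11.6 ± 4.35 RPKM in *Nestin*-GFPbright AECs and 22.1 ± 6.92 RPKM in *Nestin*-GFPdim AECs (SD, n = 3 each), a log2 fold change of -0.89 ± 0.32 (SE, unadjusted p = 0.0235, adjusted p = 0.983 from limma). For the other 5 genes, the log2 fold change lay between -1.05 (*Lpl*) and 0.53 (*Cd36*). A p above the threshold does not show that the fractions are alike.

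**Figure D4:**
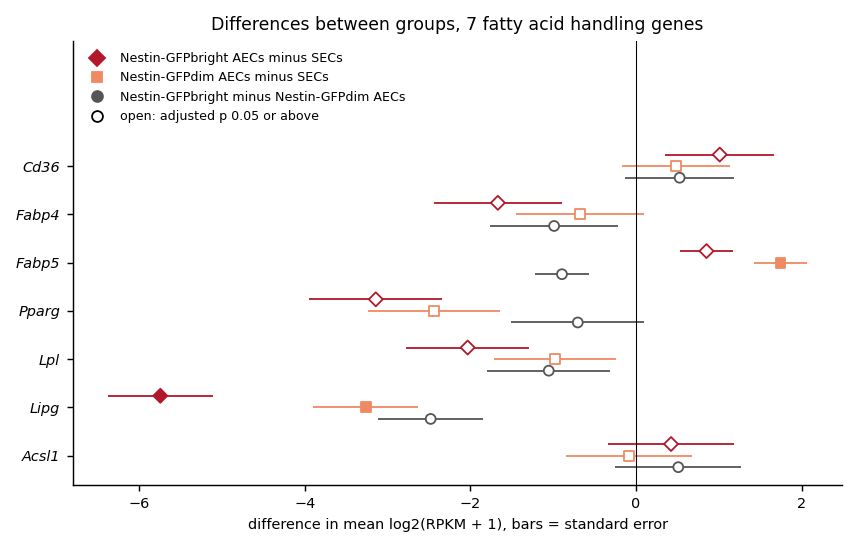
Difference in mean log2(RPKM + 1) with its standard error for *Nestin*-GFPbright AECs minus SECs, *Nestin*-GFPdim AECs minus SECs, and *Nestin*-GFPbright minus *Nestin*-GFPdim AECs. Filled symbols mark an adjusted p under 0.05: *Lipg* in both AEC fractions against SECs (-5.75 and -3.27) and *Fabp5* in *Nestin*-GFPdim AECs against SECs (1.75).

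Other genes of fatty acid and lipoprotein metabolism gave a mixed picture. Of 156 further genes on 8 lists, 133 were in the table and 132 were tested. The lists were chosen with earlier results of these data known, so the shares below are descriptions and carry no test. In AECs against SECs, 7 were higher, 6 were lower and 119 did not pass (9.85% called, against 4.93% of all tested genes), with a median log2 fold change of -0.02, against 0.03 over all tested genes. In libraries numbered 3 and 4 alone, 12 passed, where 647 of 15270 tested genes did. The count varied with single libraries, as did the count over all tested genes. It was 7 without *Nestin*-GFPbright AEC replicate 4, where 491 of 16152 tested genes passed. Without SEC replicate 1 it was 8 (444 of 16057 tested genes), without SEC replicate 3 it was 4 (275 of 16124), and without SEC replicate 4 it was 5 (262 of 16136). Without *Nestin*-GFPbright AEC replicate 1 it rose to 19 (968 of 16080). In *Nestin*-GFPbright AECs against SECs 6 were higher and 5 lower (8.33%, against 4.58% of all tested genes), and in *Nestin*-GFPdim AECs 3 were higher and 2 lower (3.79%, against 1.95%).

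Around lipolysis at the vessel wall, 3 of 18 genes were lower in AECs and 0 higher, with a median log2 fold change of 0.16. *Angptl4*, a secreted inhibitor of LPL and a known PPAR target, had 5.75, 37.2 and 21.5 RPKM in *Nestin*-GFPbright AECs, 21.97, 118 and 44.9 RPKM in *Nestin*-GFPdim AECs, and 162, 479 and 532 RPKM in SECs. It was lower in all AEC libraries (log2 fold change -3.53 ± 0.69 (SE), adjusted p = 0.0240 from limma, under 0.05 in 16 of 20 alternatives). *Apoe*, the apolipoprotein that lipoprotein receptors bind, averaged 257 ± 194 RPKM in AECs, against 1118 ± 206 RPKM in SECs, and was lower (-2.46, adjusted p = 0.00565 from limma). *Vldlr*, a receptor for triglyceride-rich lipoproteins, was also lower but near the floor, at 0.108 RPKM in AECs and 0.540 RPKM in SECs on average. *Gpihbp1*, the anchor of LPL, did not pass: it had 58.7, 235 and 273 RPKM in *Nestin*-GFPbright AECs, 276, 681 and 384 RPKM in *Nestin*-GFPdim AECs, and 105, 147 and 112 RPKM in SECs, with only *Nestin*-GFPbright AEC replicate 1 below the SECs (log2 fold change 1.08, adjusted p = 0.388 from limma). In libraries numbered 3 and 4 alone it reached 1.48 (adjusted p = 0.0648, range over the alternatives 0.0267 to 0.737).

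Among 12 genes of fatty acid transport, 2 were higher and 1 was lower in AECs, with a median of 0.31. *Slc27a1*, a fatty acid transport protein, had 1.22 to 5.76 RPKM in AECs and 15.0 to 28.9 RPKM in SECs (log2 fold change -2.62 ± 0.39 (SE), adjusted p = 0.00777 from limma, under 0.05 in 19 of 20 alternatives). *Slc27a3*, of the same family, had 5.16 to 48.3 RPKM in AECs and 1.48 to 1.81 RPKM in SECs (2.74 ± 0.50 (SE), adjusted p = 0.0182 from limma, under 0.05 in 16 of 20). The 2 transporters thus differed in opposite directions. *Meox2*, a transcription factor that with TCF15 drives *Cd36* and *Fabp4* in heart endothelium, had 81 to 2787 reads in every AEC library and 0 reads in every SEC library. At 3 reads in each SEC library as the floor (at most 0.0324 RPKM), its mean of 12.4 RPKM in AECs was at least 383-fold higher, and the adjusted p from limma was 0.0214 (under 0.05 in 15 of 20 alternatives).

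*Rbp7*, a retinol-binding relative of the FABPs that is known as a PPARγ target of capillary endothelium, had the largest difference on these lists. It had 46.0, 242 and 229 RPKM in *Nestin*-GFPbright AECs, 100.2, 147 and 136 RPKM in *Nestin*-GFPdim AECs, and 0.542, 1.02 and 0.150 RPKM in SECs. All AEC libraries were far above all SEC libraries (log2 fold change 6.43 ± 0.51 (SE), adjusted p = 0.000847 from limma). It was the 1 gene called of 5 binding proteins tested. The direction was opposite to that of *Pparg*. *Dbi*, which binds acyl-CoA, averaged 81.1 ± 11.1 RPKM in AECs, against 90.0 ± 18.6 RPKM in SECs and did not pass (adjusted p = 0.906 from limma). *Fabp9*, *Pmp2* and *Crabp2* averaged under 1 RPKM in both, and the other 6 FABP genes on the list were not analysed here.

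Of 12 acyl-CoA synthetases and thioesterases, 1 was lower in AECs, and the median was -0.05. That gene was *Acsl6*, at 0.0305 RPKM in AECs and 0.471 RPKM in SECs on average (adjusted p = 0.0249 from limma, under 0.05 in 9 of 15 alternatives in which it passed the filter). *Acsl5* was the most abundant *Acsl* gene per length, with 68.0 ± 13.1 RPKM in AECs, against 59.9 ± 4.47 RPKM in SECs. *Acsl4* averaged 8.74 RPKM in AECs and 7.99 RPKM in SECs, and *Acsl3* 2.45 RPKM in AECs and 6.68 RPKM in SECs. None of these 3 passed (adjusted p 0.104 to 0.954 from limma). For fatty acid oxidation, 0 of 25 genes passed (4 at an unadjusted p under 0.05, and 0 with limma-voom), with a median of -0.16.

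Of 23 genes of lipid droplets and triglyceride turnover, 2 were higher and 0 lower in AECs, with a median of 0.03, and both split stored lipid. *Lipe*, hormone-sensitive lipase, had 14.01, 11.97 and 12.3 RPKM in *Nestin*-GFPbright AECs, 15.6, 23.1 and 19.2 RPKM in *Nestin*-GFPdim AECs, and 4.48, 2.19 and 3.18 RPKM in SECs. *Mgll*, monoacylglycerol lipase, had 44.0, 146 and 134 RPKM in *Nestin*-GFPbright AECs, 67.8, 78.4 and 141 RPKM in *Nestin*-GFPdim AECs, and 7.52, 4.65 and 8.62 RPKM in SECs. Both were higher in all 6 AEC libraries, by 1.99 ± 0.22 (SE) for *Lipe* (adjusted p = 0.00257) and 3.60 ± 0.42 (SE) for *Mgll* (adjusted p = 0.00274) on the log2 scale, from limma. Both passed in each AEC fraction against SECs and in all 20 alternatives. The lipase genes thus differed in opposite directions, with *Lipg* lower and *Lipe* and *Mgll* higher in AECs.

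In fatty acid synthesis and desaturation, 1 of 18 genes was higher and 1 lower, with a median of 0.05. *Scd2*, a desaturase, had 14.2 to 35.4 RPKM in AECs and 5.12 to 9.13 RPKM in SECs (log2 fold change 1.59, adjusted p = 0.0373 from limma, under 0.05 in 12 of 20 alternatives). *Fads1*, the delta-5 desaturase of polyunsaturated fatty acids, had 9.51 to 28.3 RPKM in AECs and 35.7 to 50.4 RPKM in SECs (-1.31, adjusted p = 0.0470 from limma, under 0.05 in 10 of 20). Of 19 PPAR receptors and coregulators tested, 1 was higher and 0 lower, with a median of -0.03: *Prdm16*, a coregulator known from brown fat and arterial endothelium, averaged 5.75 ± 2.02 RPKM in AECs, against 0.851 ± 0.271 RPKM in SECs, with an adjusted p of 0.0121 from limma (under 0.05 in 17 of 20 alternatives). *Ppard* averaged 0.608 RPKM in AECs and 0.470 RPKM in SECs (adjusted p = 0.847 from limma), so that *Pparg* was the abundant PPAR gene of the 2, and *Ppara* was not analysed here.

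**Figure D5:**
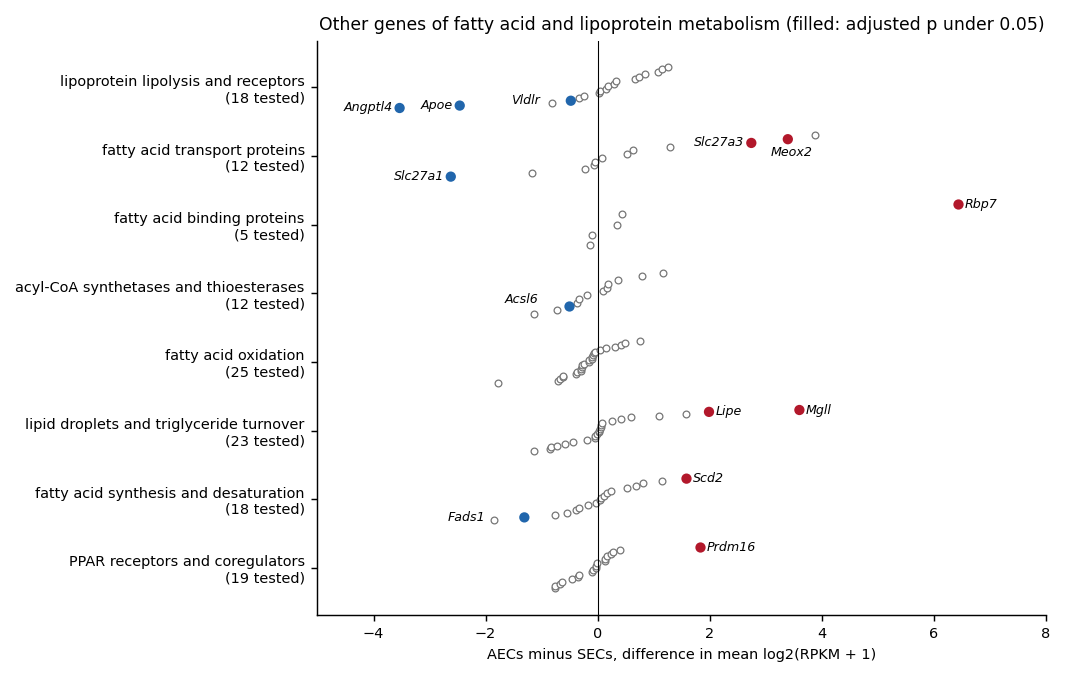
Difference in mean log2(RPKM + 1) of AECs minus SECs for the tested genes of 8 lists, 1 point per gene. Filled points mark an adjusted p under 0.05, 7 higher and 6 lower in AECs, with *Rbp7* at 6.43 farthest to the right and *Angptl4* at -3.53 farthest to the left.

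The genes whose levels most resembled each member over the 9 libraries were taken by Pearson's r of log2(RPKM + 1) among 11625 genes with a mean of at least 1 RPKM. The points share cell type, library composition and replicate number, so r is a description. *Lipg* was most like *Stab2* (0.994), *Ackr1* (0.992) and *Snx8* (0.991), of which the first encodes a scavenger receptor and the second an atypical chemokine receptor of venous and sinusoidal endothelium. *Pparg* was most like *Tspan4*, *Thbd* and *Hsd3b7* (0.988 to 0.989), where *Thbd* encodes thrombomodulin. *Fabp4* was most like *Ppap2b* (0.980), *Phldb2* (0.978) and *Robo4* (0.974), an endothelial receptor. *Fabp5* was most like *Rps6kl1* (0.978) and the potassium channel genes *Kcne3* (0.972) and *Kcna5* (0.970), all higher in AECs on average. *Cd36* was most like *Tnfrsf22*, *9430020K01Rik* and *Pdlim5* (0.974 to 0.978), *Lpl* like *Cped1*, *Adh1* and *Trim23* (0.967 to 0.977), and *Acsl1* like *Akna*, *Celf2* and *Gm15922* (0.990 to 0.995). Among the members themselves, r was 0.945 between *Fabp4* and *Lpl*, 0.899 between *Fabp4* and *Pparg*, 0.881 between *Pparg* and *Lpl* and 0.832 between *Pparg* and *Lipg*. *Cd36* and *Fabp5* stood apart from these. *Cd36* had r of 0.0555 to *Pparg* and -0.45 to *Lipg*. *Fabp5* had r of -0.0447 to *Fabp4*, -0.0176 to *Lpl*, -0.39 to *Pparg* and -0.50 to *Lipg*, and 0.543 to *Cd36*. *Acsl1* had a negative r with all 6 others.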

How the data were processed

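Both AEC fractions and SECs were sorted and read single-end with 3 libraries per group, after a low-input kit that marks neither strand nor molecules. Per the labels and methods, the authors used STAR for alignment, HTSeq for counting and edgeR 3.12.0 for scaling, and deposited RPKM on the log2 scale for 17232 genes. The paper filtered out genes of low counts and kept the same number. Genes not in the table may thus have been removed as low. The labels name mm9, but 99.88% of 17094 genes matched in position on GRCm38 (GENCODE M21), the build printed here. All 9 columns were used, and 25 symbols turned into dates or left empty were restored by identifier. Out of the log, 155085 of 155088 values gave whole reads within 0.0001 reads (prior 0.25 reads). Read counts bound counting error only.

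The main test was limma 3.58.1 (R 4.3.3) with a variance trend on log2(RPKM + 1), fitted to all 9 libraries by group, without a block, for the 16364 genes kept by the filter, with Benjamini-Hochberg adjustment over them. Adding 1 RPKM understates changes of low genes. The contrast of AECs weighted both fractions equally. Permutation tests were exact, two-sided and unadjusted. They shuffled libraries singly, so both AEC fractions of a number counted as independent. Where libraries of a number share a source, these p values can be too small. limma-voom was run on recovered reads. The fit was tested on simulated data. Tables and plots used Python 3.11.15, pandas 2.3.3, numpy 2.4.6 and matplotlib 3.10.9.

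The members, gene lists and tests were chosen with earlier results of these data known. Named genes are the 7 members, up to 4 called genes per list by fold change, *Gpihbp1*, *Angptl4*, *Rbp7*, the PPAR, *Acsl* and FABP genes, the 3 genes most like each member, and markers on which a result turns. Genes that overlap or copy a member are named besides. Deviations from group means were compared between libraries of the same number. For numbers 1, 3 and 4, r was 0.784, 0.424 and 0.155 between *Nestin*-GFPbright and *Nestin*-GFPdim AECs. Between *Nestin*-GFPdim AECs and SECs it was 0.778, 0.647 and 0.122, and number 4 had -0.212 between *Nestin*-GFPbright AECs and SECs. Unlike numbers reached 0.498 (*Nestin*-GFPbright AEC replicate 3 with *Nestin*-GFPdim AEC replicate 4), 0.4 (replicate 4 with replicate 3) and 0.285 (*Nestin*-GFPdim AEC replicate 4 with SEC replicate 3). Pairing was thus not shown for number 4, nor for number 3 between the AEC fractions, and the replicate block is an alternative only. Alternatives were pseudocounts of 0.1 and 0.01 RPKM, a filter at 1 RPKM or none, quantile normalization, no trend, library weights, a fit of the compared groups alone, the replicate block, libraries numbered 3 and 4 alone, voom, and the omission of each library.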

Additional observations from a re-analysis of the deposited data

Results flagged for a closer look

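*Fabp4* in *Nestin*-GFPbright AEC replicate 1 lay far from the other AEC libraries. On the log2(RPKM + 1) scale, the gap to the next of the 6 AEC libraries was 0.667 of their whole range and above the 95% critical value of Dixon's test for 6 values. *Fabp4* had 737 RPKM there, against 2979 to 5974 RPKM in the other AEC libraries, and the log2 fold change of AECs against SECs without that library was -0.80 (adjusted p = 0.590 from limma). Chance flags about 1 in 20 groups, and 7 genes were looked at in this way.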

How the results depend on the processing

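*Lipg* in AECs and in *Nestin*-GFPbright AECs against SECs, and *Apoe*, *Rbp7*, *Lipe* and *Mgll* in AECs, kept their direction and their call under all 20 alternatives. Of the 7 members, 1 to 2 passed in AECs with any 1 library left out, where 2 did with all. In *Nestin*-GFPbright AECs 4 passed with library weights and 3 with the replicate block, where 2065 and 1391 of 16364 tested genes did. With a library left out 1 to 2 members passed, where 1 did with all. In *Nestin*-GFPdim AECs 1 passed with a pseudocount of 0.1 or 0.01 RPKM, quantile normalization, no trend, only the groups compared or only libraries numbered 3 and 4, 0 passed with voom, and 0 to 2 with a library left out, where 2 did. Over all tested genes, the settings from the pseudocount of 0.1 RPKM to voom gave 386, 358, 245, 258, 192, 172 and 137, in that order, against 319 in the main fit. With the replicate block, *Pparg* passed in AECs (adjusted p = 0.00217), *Nestin*-GFPbright AECs (0.00260) and *Nestin*-GFPdim AECs, and *Lpl* in *Nestin*-GFPbright AECs (0.0353) but not in AECs (0.0640), and the block changed no other call of a member. In libraries numbered 3 and 4 alone, the exact permutation test gave 0.0667 for *Fabp5* and *Pparg*, 0.133 for *Lipg* and 1.0 for *Acsl1*, with 0.0667 the smallest value possible.

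The sign of *Acsl1* turned in AECs with library weights (-0.27) and in libraries numbered 3 and 4 alone (-0.048), and lay between -0.37 and 0.58 with a library left out. It turned in *Nestin*-GFPbright AECs with weights (-0.079), and lay between -0.27 and 0.96 there, between -0.65 and 0.32 in *Nestin*-GFPdim AECs, and between -0.18 and 1.08 for *Nestin*-GFPbright against *Nestin*-GFPdim AECs with a library left out. *Pparg* lay between -1.32 and 0.037 for *Nestin*-GFPbright against *Nestin*-GFPdim AECs, *Dbi* between -0.24 and 0.021 in AECs, and *Fabp9* between -0.49 and 0.17 (0.15 with weights). The cause was not tested.

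Of the other fatty acid genes in AECs, 36 passed with weights, 23 with the replicate block and 4 to 19 with a library left out. In *Nestin*-GFPbright AECs these counts were 33, 20 and 4 to 16, and in *Nestin*-GFPdim AECs 9, 12 and 2 to 9, besides 9 and 8 with pseudocounts of 0.1 and 0.01 RPKM and 3 with voom. Over all tested genes 1717, 1333 and 262 to 968 passed in AECs, against 807. In *Nestin*-GFPbright AECs 2065, 1391 and 277 to 882 passed, against 750. In *Nestin*-GFPdim AECs 513, 644 and 64 to 417 passed, against 319, besides 192 with only the groups compared, 172 in libraries numbered 3 and 4 alone and 137 with voom. Between *Nestin*-GFPbright and *Nestin*-GFPdim AECs, 3 passed with the block and at most 1 otherwise.

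Calls of named pathway genes in AECs were lost most often without an SEC library. That was so for *Angptl4* without SEC replicate 3 (0.130) or 4 (0.134) and without replicate 4 of either AEC fraction, *Slc27a1* without SEC replicate 3 (0.0520), and *Meox2*, *Slc27a3*, *Scd2*, *Fads1* and *Prdm16* without any of the 3.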
